A study of Mus musculus with 4 samples.

Results

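Aminoacyl-tRNA synthetases were compared at their translation start sites in cultured mouse cortical neurons with and without Ltn1, the ubiquitin ligase that marks incomplete nascent chains on stalled ribosomes for degradation. The enzymes were taken by symbol: a single letter for the amino acid followed by ars, with or without 1 or 2, together with Eprs, Farsa, Farsb and Pars2, and the scaffold genes Aimp1 and Aimp2. Of the 6352 transcripts in the table, 27 met this rule, and each came from a different gene. They were 20 cytosolic synthetases, 5 mitochondrial synthetases (Iars2, Mars2, Rars2, Tars2 and Yars2) and the 2 scaffolds. Aimp2 ends in 2 but belongs to the cytosolic multisynthetase complex, so it was not counted as mitochondrial.

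Each aminoacyl-tRNA synthetase attaches an amino acid to its tRNA, which the ribosome then reads against the codon. Mammalian cells carry separate nuclear genes for most cytosolic and mitochondrial enzymes, although in humans Gars and Kars serve both compartments from a single gene. In the cytosol, the synthetases for glutamate and proline (Eprs, 1 protein), isoleucine, leucine, glutamine, methionine, lysine, arginine and aspartate are held together in the multisynthetase complex with the scaffolds Aimp1 and Aimp2. Several cytosolic synthetase genes are known targets of Atf4, the transcription factor of the amino acid response.

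Ribosome-protected fragments were sequenced after harringtonine at 5 µg/ml for 3 min, a drug that holds ribosomes at start codons. There were 4 libraries, 1 per condition, and all 4 were treated with the drug. KO SC was labelled Ltn1 KO with Ttc3 RNAi, WT SC was labelled WT with Ttc3 RNAi, KO TTC was labelled Ltn1 KO with scrambled RNAi, and WT TTC was labelled WT with scrambled RNAi. The letters of the codes spell the RNAi the other way round from the labels. The gene list that accompanies the study, described as Ltn1 KO minus WT with no RNAi named, was made from the SC libraries and not from the TTC libraries, which goes with the letters and against the labels. The libraries are therefore called by their codes, ratios are given as SC over TTC, and no difference between SC and TTC is read as an effect of Ttc3 knockdown. The comparisons describe how ribosome occupancy at start sites differed between libraries labelled Ltn1 KO and WT, and between the codes. Ttc3, the target named for the RNAi, is also a ubiquitin ligase. The age of the embryos, the number of cultures pooled and the site of the Ltn1 mutation were not given in the sources used here.

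Library totals lay between 3655827 reads in KO TTC and 1460425 reads in WT TTC, and the listed start sites held between 6.06% and 6.85% of them. Values are RPM (footprint reads scaled to library size), and 1 read was worth 0.374 RPM in KO SC, 0.477 in WT SC, 0.274 in KO TTC and 0.685 in WT TTC. Ltn1 itself had 37 reads in KO SC, 10 in WT SC, 0 in KO TTC and 2 in WT TTC. In the SC libraries the library labelled KO thus had more of these reads. With the site of the mutation not given, reads at the start site cannot check the genotype labels. KO and WT stand for the libraries labelled that way throughout. Ttc3 had 2, 3, 0 and 0 reads in KO SC, WT SC, KO TTC and WT TTC, too few to check the RNAi labels. Summed over 14 neuronal markers, RPM was highest in KO SC (2441) and lowest in WT TTC (2101), and none of 10 microglial or 3 endothelial markers was in the table. Summed over the 7 of 8 astrocyte markers in the table, RPM was 113 in KO SC, 193 in WT SC, 173 in KO TTC and 233 in WT TTC. For the 7 of 10 markers of the oligodendrocyte lineage in the table, the sums were 11.97, 38.6, 39.9 and 67.8 RPM in the same order of libraries. Within each code both glial sums were lower in KO than in WT, as was the cytosolic synthetase sum described below, and their part in it was not tested.

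With 1 library per condition there was no replicate check. Differences between 2 libraries were tested on the recovered reads with a two-sided exact binomial test, adjusted by Benjamini-Hochberg over all transcripts of the pair, and a transcript was called at an adjusted p under 0.05. Such a test compares libraries, not conditions, and its 95% intervals cover counting error only. A second rule, with no p, asked for a 2-fold difference among transcripts with at least 20 reads in the pair. In these bulk cultures, fewer cells of a type and less RNA per cell cannot be told apart.

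The 20 cytosolic enzymes had between 6 and 246 reads each over the 4 libraries, and the 5 mitochondrial enzymes had between 2 and 27. Among the 27 genes, 22 had reads in every library, and 16 averaged at least 5 RPM, against 58.5% and 36.4% of all transcripts. Those 16 were 15 cytosolic synthetases and the scaffold Aimp2, and no mitochondrial synthetase. RPM is not divided by length and the window counted is not known, so these numbers give the depth behind each gene, not its expression against other genes. The plot of RPM by gene and library shows the values with their counting error.

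**Figure D1:**
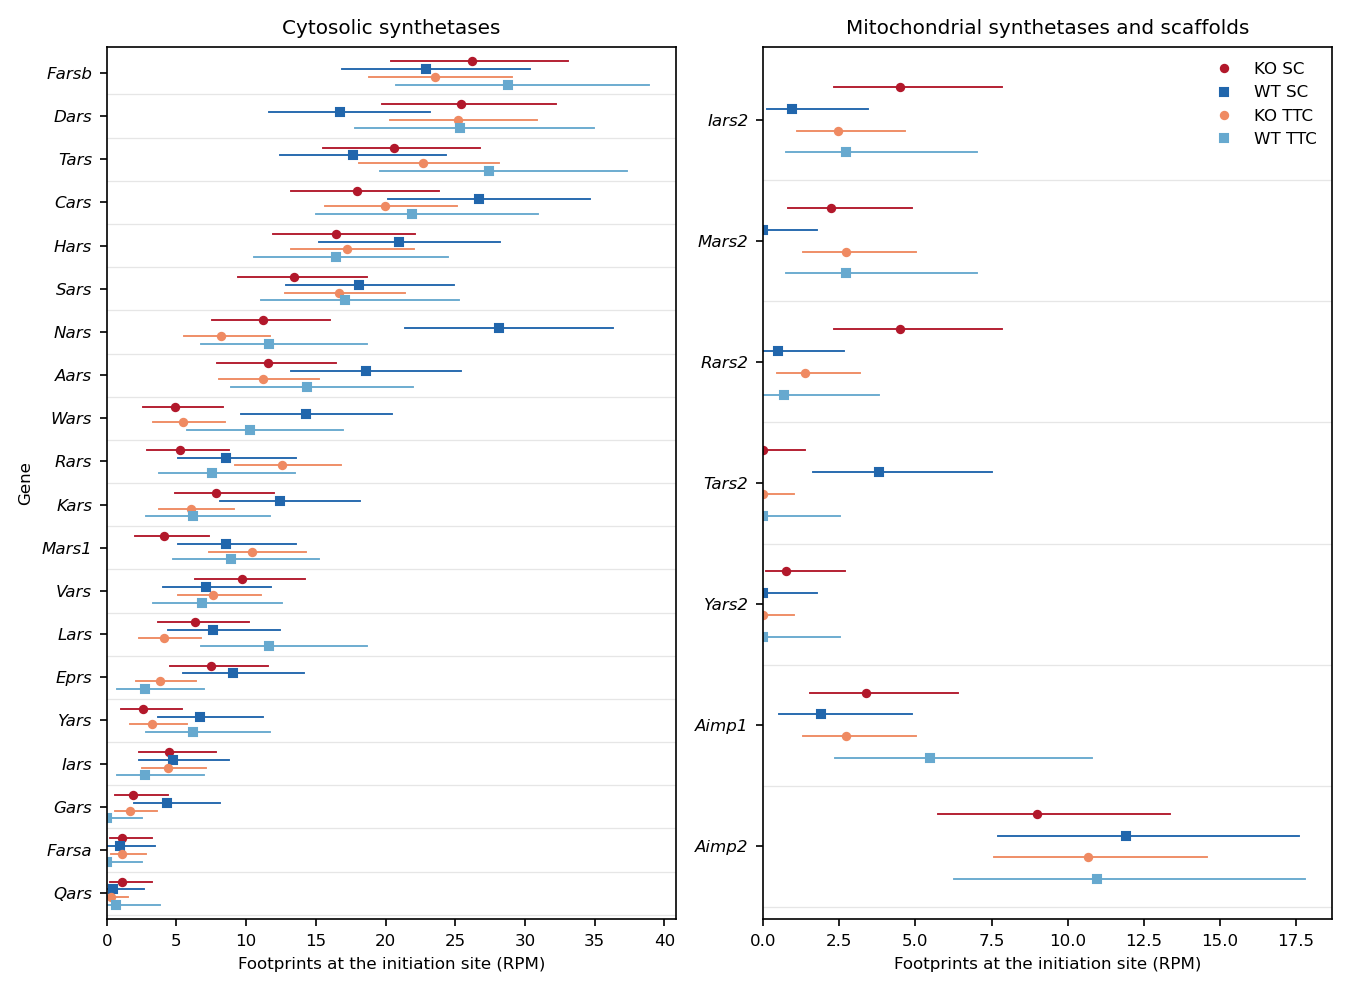
RPM at the start site of each synthetase and scaffold gene (rows) in the 4 libraries (colours), with exact 95% Poisson intervals as horizontal bars. Nars in WT SC, at 28.1 RPM, lies apart from its 3 other libraries, and Tars2 has reads in WT SC alone.

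In the SC libraries, the cytosolic enzymes were lower in KO than in WT as a group, while 4 of the 5 mitochondrial enzymes were higher. The cytosolic sum was 199.8 RPM in KO SC (534 reads) and 255 RPM in WT SC (534 reads), a ratio of 0.784 (0.694 to 0.886). Of the 20 cytosolic enzymes, 14 were lower and 6 higher in KO SC, with a median difference of -0.37 in log2(RPM + 1), beside 2939 lower, 2416 higher and a median of 0.00 over all 6352 transcripts. Summed over all transcripts, the ratio of KO SC to WT SC was 0.950. The cytosolic ratio remained under 1 without Nars, at 0.832 (0.733 to 0.945), and without Wars, at 0.811 (0.716 to 0.918). These genes were not left out together. The ratio was nearer 1 under the other scalings. It was 0.826 (0.731 to 0.933) with libraries rescaled to the same sum over the listed sites and 0.864 (0.765 to 0.976) with median-of-ratios factors.

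**Figure D2:**
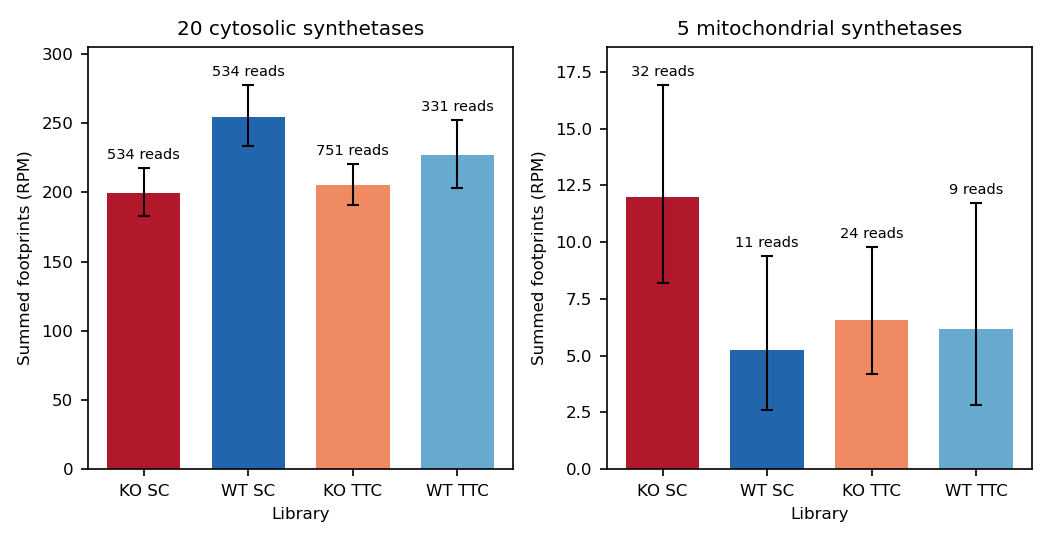
Summed RPM of the cytosolic and of the mitochondrial synthetases in the 4 libraries, with exact 95% Poisson intervals. The cytosolic sum is highest in WT SC at 255 RPM, and the mitochondrial sum is highest in KO SC at 11.97 RPM.

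Within the cytosolic enzymes, the ratio of KO SC to WT SC was 0.910 (0.724 to 1.15) for the 8 enzymes of the multisynthetase complex, 6 of them lower. For the 12 other cytosolic enzymes it was 0.738 (0.638 to 0.853), with 8 lower. The 2 intervals overlap, and the difference between these subgroups was not tested.

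By the exact test, 3 of the 27 genes were called lower in KO SC relative to WT SC and 0 were called higher, beside 4.74% and 2.63% of all transcripts tested. At an unadjusted p under 0.05 there were 5 lower and 4 higher of the 27, beside 636 lower and 413 higher of 5355 transcripts tested. By the 2-fold rule, 4 of the 18 genes with enough reads (Nars, Wars, Yars and Mars1) were lower and 0 were higher, beside 8.65% and 4.77% of all transcripts.

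Nars, which charges tRNA with asparagine (chr18:64499655-64516515, GRCm38), had 11.2 RPM in KO SC (30 reads), 28.1 in WT SC (59 reads), 8.21 in KO TTC (30 reads) and 11.6 in WT TTC (17 reads). WT SC stood above the 3 other libraries, which lay within 8.21 to 11.6 RPM. The ratio of KO SC to WT SC was 0.399 (0.248 to 0.629; exact test, adjusted p = 0.00119). The ratio of KO TTC to WT TTC was 0.705 (0.377 to 1.36).

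Wars, the tryptophan enzyme (chr12:108860030-108894175), had 4.86 RPM in KO SC (13 reads), 14.3 in WT SC (30 reads), 5.47 in KO TTC (20 reads) and 10.3 in WT TTC (15 reads). Both KO libraries lay below both WT libraries. KO SC was lower than WT SC with a ratio of 0.340 (0.163 to 0.671; exact test, adjusted p = 0.0200), while the ratio of KO TTC to WT TTC was 0.533 (0.259 to 1.12; exact test, adjusted p = 0.353).

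The third call was mitochondrial. Tars2, the mitochondrial threonine enzyme (chr3:95739974-95756365), had no read in KO SC, against 8 reads in WT SC (3.82 RPM), and no read in KO TTC or WT TTC. Its value in WT SC was 3.40-fold the floor of 3 reads in KO SC (1.12 RPM), and it was called lower in KO SC (exact test, adjusted p = 0.0249). The interval of the ratio of KO SC to WT SC, which includes the counting error of the 8 reads, ran from 0 to 0.459. The 2 TTC libraries had no read and gave no ratio.

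The other mitochondrial enzymes were higher in KO SC relative to WT SC, and none was called. Rars2, for arginine, had 4.49 RPM in KO SC (12 reads), 0.477 in WT SC (1 read), 1.37 in KO TTC (5 reads) and 0.685 in WT TTC (1 read). Its ratio of KO SC to WT SC was 9.41 (1.39 to 402; exact test, adjusted p = 0.0944). Iars2, for isoleucine, had 4.49 RPM in KO SC (12 reads), 0.954 in WT SC (2 reads), 2.46 in KO TTC (9 reads) and 2.74 in WT TTC (4 reads). KO SC was again the highest library, with a ratio to WT SC of 4.71 (1.05 to 43.3; exact test, adjusted p = 0.193). Mars2, for methionine, had 2.24 RPM in KO SC (6 reads), 0 in WT SC, 2.74 in KO TTC (10 reads) and 2.74 in WT TTC (4 reads). Here WT SC was the library without reads, and the 3 others were alike at 2.24 to 2.74 RPM. Yars2, for tyrosine, had 2 reads in KO SC (0.748 RPM) and 0 in each of the other libraries.

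Summed, the 5 mitochondrial enzymes had 11.97 RPM in KO SC (32 reads) and 5.25 RPM in WT SC (11 reads), a ratio of 2.28 (1.12 to 5.02). Tars2 gave 8 of the 11 reads in WT SC, and without it the ratio was 8.36 (2.62 to 42.7). The interval reached below 1 without Rars2 (1.57, 0.701 to 3.75), without Iars2 (1.74, 0.759 to 4.35) and without Mars2 (1.85, 0.885 to 4.16), so 3 genes with few reads carried it. In the TTC libraries the sum was 6.57 RPM in KO TTC (24 reads) and 6.16 RPM in WT TTC (9 reads), a ratio of 1.07 (0.478 to 2.60).

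The cytosolic enzymes for the same 5 amino acids had more reads, between 42 and 215 each over the 4 libraries. Rars had 5.24 RPM in KO SC, 8.59 in WT SC, 12.6 in KO TTC and 7.53 in WT TTC. Iars had 4.49 RPM in KO SC, 4.77 in WT SC, 4.38 in KO TTC and 2.74 in WT TTC, so KO SC was close to WT SC at a ratio of 0.941 (0.373 to 2.43). Mars1 had 4.12 RPM in KO SC, 8.59 in WT SC, 10.4 in KO TTC and 8.90 in WT TTC, and KO SC was the lowest library for both Rars and Mars1. Tars had 20.6 RPM in KO SC, 17.7 in WT SC, 22.7 in KO TTC and 27.4 in WT TTC, with a ratio of KO SC to WT SC of 1.17 (0.755 to 1.82). Its interval includes 1, while Tars2 had reads in WT SC alone. Yars had 2.62 RPM in KO SC, 6.68 in WT SC, 3.28 in KO TTC and 6.16 in WT TTC, lower in both KO libraries, with ratios of 0.392 (0.134 to 1.04) and 0.533 (0.206 to 1.43).

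In the TTC libraries, the cytosolic sum was 205 RPM in KO TTC (751 reads) and 227 RPM in WT TTC (331 reads), a ratio of 0.906 (0.795 to 1.03), with 12 enzymes lower and 8 higher. The median difference in log2(RPM + 1) was -0.03, beside 0.00 over all transcripts. The complex enzymes had a ratio of 1.02 (0.799 to 1.30) and the other cytosolic enzymes 0.862 (0.737 to 1.01). By the exact test, 0 of the 25 genes with reads were called lower or higher in KO TTC, beside 4.41% lower and 3.14% higher of all transcripts tested. At an unadjusted p under 0.05, 1 of the 25 was lower and 0 were higher, beside 599 lower and 427 higher of 5448 transcripts tested. By the 2-fold rule 1 of 17 was lower and 0 were higher, beside 6.18% and 9.68% of all transcripts.

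That gene was Lars, the leucine enzyme, with 6.36 RPM in KO SC (17 reads), 7.63 in WT SC (16 reads), 4.10 in KO TTC (15 reads) and 11.6 in WT TTC (17 reads). KO TTC was the lowest library and WT TTC the highest. The ratio of KO TTC to WT TTC was 0.353 (0.164 to 0.750; exact test, adjusted p = 0.0622), and the gene was called when testing was limited to transcripts averaging 5 RPM or more.

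**Figure D3:**
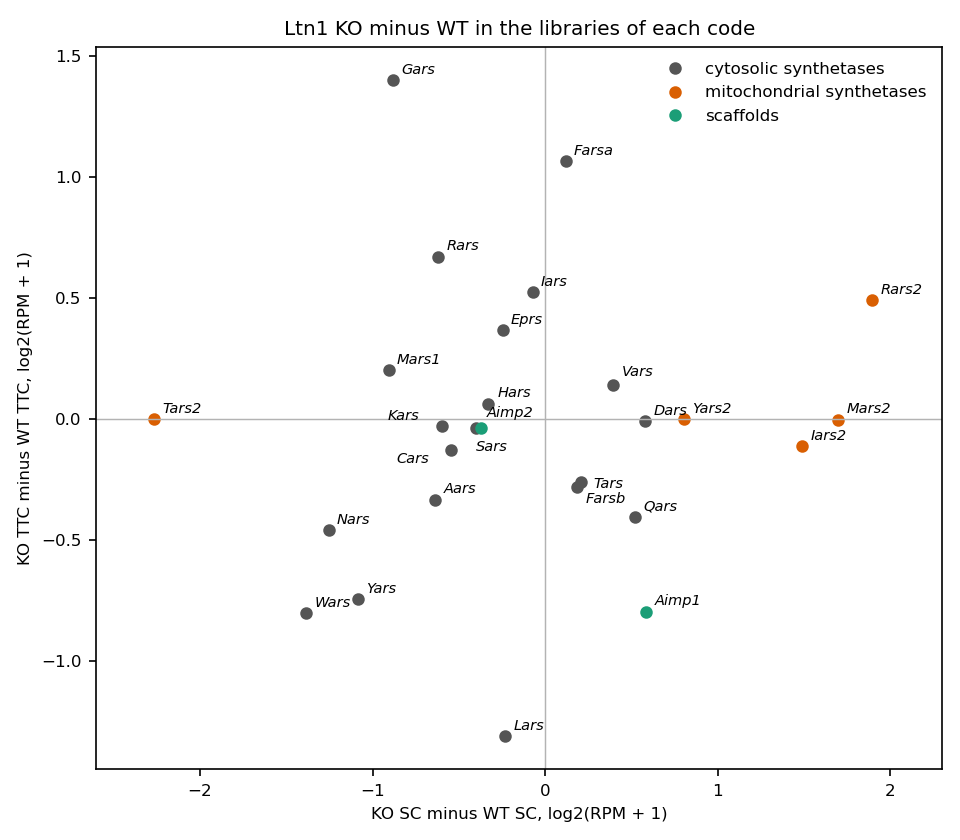
Difference of KO minus WT in log2(RPM + 1) in the SC libraries (horizontal axis) and in the TTC libraries (vertical axis), 1 point per gene. Nars, Wars and Yars lie below 0 on both axes. Mars2 and Iars2 lie to the right and near 0 on the vertical axis, while Rars2 lies to the right and at 0.49 on the vertical axis.

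The plot of the 2 KO minus WT differences compares both codes gene by gene. Of the 27 genes, 9 were lower in both KO libraries (33.3%) and 3 were higher in both (11.1%), beside 22.9% and 19.2% of all transcripts. The cytosolic enzymes gave 8 of the 9, and 6 of these were outside the complex. A direct test of whether the KO to WT ratio differed between SC and TTC, an exact conditional test on the reads, called 0 of the 27 genes and 2.55% of 5955 transcripts. At an unadjusted p under 0.05 it gave 0 of 27 and 11.99% of all. Tars2 and Yars2 had no read in either TTC library, so this test could not call them. Transcripts without reads in a code likewise count in the total.

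An additive fit over all 4 libraries (limma on log2(RPM + 1), genotype and code as terms, 1 residual degree of freedom) called 0 of 4548 transcripts for genotype. At an unadjusted p under 0.05 it gave 164 transcripts higher and 209 lower in KO, edgeR called 0, and DESeq2 called 1. Among the 23 synthetase and scaffold genes it could test, Wars was -1.09 ± 0.37 (SE) for KO minus WT (limma, adjusted p = 0.580) and Nars was -0.86 ± 0.33 (limma, adjusted p = 0.598). They were the only 2 of the 23 under an unadjusted p of 0.05.

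Between the codes, the cytosolic synthetases summed to 199.8 RPM in KO SC, against 205 RPM in KO TTC, a ratio of 0.973 (0.869 to 1.09). This ratio changed side with the scaling and was 1.08 with libraries rescaled to the same sum over the listed sites and 1.10 with median-of-ratios factors. The mitochondrial sum was 11.97 RPM in KO SC, against 6.57 RPM in KO TTC, a ratio of 1.82 (1.04 to 3.24). Without Rars2 it was 1.44 (0.729 to 2.85), and without Iars2 1.82 (0.887 to 3.83). Of the 26 genes tested, 2 were called lower in KO SC and 0 higher, beside 10.9% and 5.71% of all transcripts, and by the 2-fold rule 2 of 18 were lower and 0 higher, beside 14.9% and 5.28%.

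These 2 genes were Rars and Mars1, both of the multisynthetase complex. Rars had 14 reads in KO SC, against 46 in KO TTC, a ratio of 0.416 (0.211 to 0.771; exact test, adjusted p = 0.0210). Mars1 had 11 reads in KO SC, against 38 in KO TTC, a ratio of 0.396 (0.183 to 0.790; exact test, adjusted p = 0.0385). Both calls were lost under either of the other scalings, and their count lay below the background share.

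WT SC had 255 RPM of cytosolic synthetases and WT TTC 227 RPM, a ratio of 1.12 (0.978 to 1.29), with 14 of 20 enzymes higher in WT SC. The interval lay above 1 under the other scalings, at 1.21 (1.05 to 1.39) and 1.20 (1.04 to 1.38). The mitochondrial sum was 5.25 RPM in WT SC, against 6.16 RPM in WT TTC, a ratio of 0.852 (0.321 to 2.33) that was 0.232 (0.0404 to 0.931) without Tars2. Of the 26 genes tested, 1 was called higher in WT SC and 0 lower, beside 3.82% and 7.02% of all transcripts. By the 2-fold rule 3 of 17 (Nars, Eprs and Kars) were higher and 0 lower, beside 8.76% and 10.2%.

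The called gene was Nars, at a ratio of 2.42 (1.39 to 4.43; exact test, adjusted p = 0.0139). Both Nars calls thus rest on the WT SC library, which the 2 comparisons share. Eprs, the joined glutamate and proline enzyme, had 7.48 RPM in KO SC (20 reads), 9.06 in WT SC (19 reads), 3.83 in KO TTC (14 reads) and 2.74 in WT TTC (4 reads). Both SC libraries were above both TTC libraries, with a code difference of 1.12 ± 0.42 (SE) in log2(RPM + 1) (SC minus TTC; limma, adjusted p = 0.258). For the code term limma called 0 of 4548 transcripts, with 238 higher and 453 lower at an unadjusted p under 0.05, edgeR called 0 and DESeq2 called 16, none of them among these genes.

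The scaffolds hold the multisynthetase complex together. Aimp2 had 8.98 RPM in KO SC, 11.9 in WT SC, 10.7 in KO TTC and 11.0 in WT TTC. Aimp1 had 3.37 RPM in KO SC, 1.91 in WT SC, 2.74 in KO TTC and 5.48 in WT TTC, so its KO to WT ratio was 1.76 (0.492 to 7.84) with SC and 0.499 (0.177 to 1.46) with TTC. Neither scaffold was called in any of the 4 comparisons.

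How far each gene varied over the 4 libraries was described by the Pearson statistic of its reads divided by its 3 degrees of freedom, which is near 1 when reads differ by counting error alone. Over the 22 genes with at least 20 reads its median was 1.86, beside 2.15 over the 3159 transcripts with 20 to 246 reads. Within that range the transcripts were not matched to the genes in read number. Among these 22, 6 (Iars, Aimp2, Vars, Farsb, Hars and Sars) were below the lower quartile of those transcripts, 1.05. These genes serve isoleucine, valine, phenylalanine, histidine and serine, besides the scaffold, and Farsb, the beta subunit of the phenylalanine enzyme, ran only from 22.9 RPM in WT SC to 28.8 RPM in WT TTC. Wars (5.94) and Nars (13.8) were the 2 above the upper quartile, 4.12. Of the 20 cytosolic enzymes, 4 had their highest value in KO SC, 11 in WT SC, 2 in KO TTC and 3 in WT TTC.

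**Figure D4:**
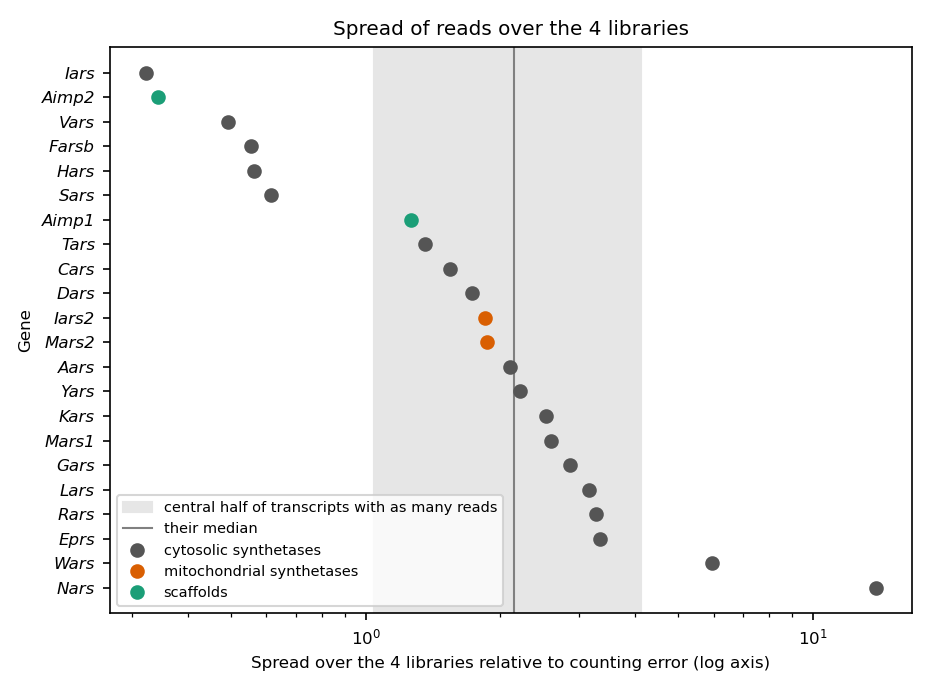
Spread of reads over the 4 libraries relative to counting error (log axis) for the 22 genes with at least 20 reads. The line is the median and the grey range lies between the quartiles of the 3159 transcripts with 20 to 246 reads. Nars at 13.8 and Wars at 5.94 lie right of the grey range, and 6 genes lie left of it.

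The remaining cytosolic enzymes were not called in any comparison. Cars (cysteine), Dars (aspartate), Hars (histidine), Sars (serine) and Aars (alanine) lay between 11.2 and 26.7 RPM in every library. Dars was higher in KO SC (25.4 RPM) relative to WT SC (16.7 RPM), with an interval of the ratio from 0.999 to 2.36, while Cars was lower in KO SC (18.0 RPM) relative to WT SC (26.7 RPM), with an interval from 0.447 to 1.01. Vars (valine) and Kars (lysine) lay between 6.02 and 12.4 RPM. Gars (glycine), Farsa (the alpha subunit of the phenylalanine enzyme) and Qars (glutamine) had 20, 9 and 6 reads in all. Gars had 9 reads in WT SC, against 0 in WT TTC (exact test, adjusted p = 0.0912). Its value in WT SC was 2.09-fold the floor of 3 reads in WT TTC. The interval of the ratio, which includes the counting error of the 9 reads, began at 1.375.

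Upstream sequence was read for the synthetase genes because several belong to the Atf4 program, whose factors bind C/EBP-ATF response elements. The core TGATGNAA was searched on both strands (TTNCATCA on the other) in RefSeq promoters of GRCm38.p6. Each ran from 250 bases before to 50 bases after a start listed for the gene. For some genes, among them Aars, Eprs and Tars2, that start lay inside the gene's RefSeq span, which for Aars was chr8:111027778-111055569. Promoters were held for 20 of the 27 genes, and Hars, Cars, Rars, Vars, Lars, Wars and Nars were not among them. The core was present in 5 of the 20 (Aars, Gars, Iars, Tars and Yars), all cytosolic, and in 0 of the 5 mitochondrial genes, beside 3.97% of 32851 promoters of the same length. A match of letters is not a bound site.

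In Aars, Gars and Tars the core lay before the listed start, as in 3.45% of all promoters. For these 3 genes the 250 bases before the listed start are shown 5′ to 3′ on the gene's strand, with the core in capitals. They are chr8:111033592-111033841 (plus strand) for Aars with the core 112 to 105 bases upstream, chr6:55037751-55038000 (plus strand) for Gars with the core 30 to 23 bases upstream, and chr15:11399659-11399908 (minus strand) for Tars with the core 15 to 8 bases upstream.
Aars: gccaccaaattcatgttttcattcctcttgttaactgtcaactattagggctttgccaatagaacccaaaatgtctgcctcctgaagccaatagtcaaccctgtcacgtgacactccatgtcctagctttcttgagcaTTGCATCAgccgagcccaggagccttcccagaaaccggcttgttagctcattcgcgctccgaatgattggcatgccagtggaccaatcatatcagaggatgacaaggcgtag
Gars: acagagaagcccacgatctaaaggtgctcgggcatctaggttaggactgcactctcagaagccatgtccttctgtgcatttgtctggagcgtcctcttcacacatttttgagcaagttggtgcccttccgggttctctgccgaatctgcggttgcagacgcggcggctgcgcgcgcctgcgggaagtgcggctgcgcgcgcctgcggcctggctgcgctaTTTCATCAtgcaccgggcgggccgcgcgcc
Tars: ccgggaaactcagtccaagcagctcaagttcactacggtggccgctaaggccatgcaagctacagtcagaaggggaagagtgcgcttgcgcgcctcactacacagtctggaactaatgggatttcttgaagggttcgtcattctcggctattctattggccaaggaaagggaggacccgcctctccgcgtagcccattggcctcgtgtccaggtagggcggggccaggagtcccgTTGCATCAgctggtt
The start-site reads of these 3 genes differed in direction. Aars had 11.6 RPM in KO SC, 18.6 in WT SC, 11.2 in KO TTC and 14.4 in WT TTC, lower in both KO libraries. Gars had 1.87 RPM in KO SC, 4.29 in WT SC, 1.64 in KO TTC and 0 in WT TTC, and Tars, given above, was higher in KO SC and lower in KO TTC than in the WT library of the same code.

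Of 14 listed partners of tRNA charging, 7 were in the table: Aarsd1 and Dtd1, which clear mischarged tRNA, the complex scaffold Eef1e1, the mitochondrial amidotransferase subunit Gatc, the selenocysteine kinase Pstk, the threonine enzyme paralogue Tarsl2 and the CCA-adding enzyme Trnt1. In KO SC 6 of the 7 were lower and 0 higher relative to WT SC, beside 46.3% and 38.0% of all transcripts. Of the 7, 0 were called, with a summed ratio of 0.810 (0.626 to 1.05). In KO TTC 6 were lower and 1 was higher than in WT TTC, beside 42.1% and 43.7% of all transcripts, with a ratio of 0.679 (0.543 to 0.853). Pstk, with 0 reads in KO TTC and 14 in WT TTC, was the 1 called, beside 4.41% of all transcripts called lower in that pair.

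For the 9 factors that deliver charged tRNA and move the ribosome in the cytosol and mitochondria, among them Eef1a1, Eef1a2 and Tufm, the summed ratio was 0.918 (0.754 to 1.12) for KO SC against WT SC and 1.08 (0.880 to 1.34) for KO TTC against WT TTC. Of 25 other Atf4 program genes, 16 were in the table, with ratios of 0.779 (0.658 to 0.921) and 0.612 (0.525 to 0.715). In KO SC 7 of the 16 were lower and 5 higher relative to WT SC, with 1 called lower (Mthfd2, 0 reads against 8). In KO TTC 10 were lower and 4 higher than in WT TTC, with 2 called lower. These were Psph (0 reads against 11) and Ddit4 (49.0 RPM against 80.1). Ddit4 gave 179 of the 426 reads summed in KO TTC and 117 of the 278 in WT TTC. Over all transcripts, 46.3% were lower, 38.0% higher and 4.74% called lower in KO SC. In KO TTC 42.1% of all transcripts were lower, 43.7% higher and 4.41% called lower. Slc7a5, a transporter of large neutral amino acids, had 16.1 RPM in KO SC, 21.9 in WT SC, 21.9 in KO TTC and 35.6 in WT TTC.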

How the data were processed

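Ribosome footprints of harringtonine-treated primary cortical neurons were deposited by the authors as 1 table of RPM, the reads at the start site of each transcript scaled to the reads of the library, with 1 column per library. Bowtie, SAMtools and bedtools and the builds GRCm38 and mm10 are named in the submitters' processing notes. Their versions, the window counted, the strand setting, the treatment of multiply mapped reads and the choice of transcripts were not given in the sources used here. Read numbers of different genes are therefore given as depth only, and tests compare libraries within a gene or group.

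Symbols were joined by transcript identifier from the gene list that accompanies the study (6349 of 6352 transcripts; 38 identifiers with 1 extra zero were mended). Its other column holds the authors' own KO minus WT differences, which entered no result and served only to see which libraries it was made from. The values stepped in whole reads: 100% were whole within a tolerance of 1e-06, so reads and library totals were recovered. The floor of 3 reads was 1.12 RPM in KO SC, 1.43 in WT SC, 0.821 in KO TTC and 2.05 in WT TTC. Each pair of libraries was compared by an exact binomial test over all transcripts with reads in the pair, with exact (Clopper-Pearson) 95% intervals of the ratio. Reads of all transcripts varied more between libraries than counting error gives, with a mean Pearson statistic of 3.17 to 5.12 in the 4 comparisons over transcripts with at least 20 reads, where counting error alone gives about 1, so intervals and p-values do not cover the whole spread between libraries. The additive fit used limma 3.58.1 on log2(RPM + 1) for transcripts averaging 1 RPM or more. edgeR 4.0.16 and DESeq2 1.42.0 on the recovered reads were alternatives, and edgeR called 0 transcripts for either term. The tests were checked on simulated data. For the exact tests and their intervals the simulated reads had counting error alone, so that check does not cover the larger spread between these libraries. Python 3.11.15, SciPy 1.17.1 and R 4.3.3 were used. Gene positions and promoters are from RefSeq, GRCm38.p6.

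All members were named. Values in the 4 libraries were given in full for the mitochondrial enzymes, the cytosolic enzymes of the same amino acids, the scaffolds and every gene called in a pair, and for others (Lars, Eprs, Aars and Gars) after their values were seen. Members and gene lists were chosen with earlier results of these data known. No column lacked a sample. The alternatives were other scalings, filters, pseudocounts, tests and groupings.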

Additional observations from a re-analysis of the deposited data

How the results depend on the processing

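Each condition had 1 library, so no replicate could be left out. No paired analysis was possible because the labels give no replicate numbers and each condition has 1 library. Of the alternative values of the group sums and counts of calls, 68 were labelled as the same, 9 as moved and 1 as reversed. Counts of calls could differ and still be labelled the same, as with 2 in place of 3 for KO SC against WT SC. For sums, the same meant a value within the interval of the main ratio. This label did not ask that the new interval still exclude 1. For the mitochondrial sums of KO SC and WT SC it did not with Aimp2 counted, or without Rars2, Iars2 or Mars2. Some of the 68 also changed side where the main interval included 1. The log2 ratio of the cytosolic sums of KO SC and KO TTC went from -0.04 to 0.10 with libraries rescaled to the same sum. That of the mitochondrial sums of WT SC and WT TTC went from -0.23 to 0.33 without Iars2 and to 0.62 without Mars2. Scaling factors by median of ratios were 0.909 for KO SC, 1.00 for WT SC, 1.03 for KO TTC and 1.07 for WT TTC. With them the log2 ratio of the cytosolic sums of KO SC and KO TTC was 0.13 in place of -0.04, and 0 genes were called between these libraries, as also when libraries were rescaled to the same sum. With a mean of at least 5 RPM, 1 gene (Lars) was called in KO TTC against WT TTC, and no mitochondrial enzyme was left, so their sums had no value. Exchanging the RNAi labels goes with the code letters and with the libraries behind the study's KO minus WT list. It only changes the sign of each log2 ratio of SC to TTC, so its outcome was fixed in advance. The log2 ratio became -0.87 for the mitochondrial sums in KO and -0.17 for the cytosolic sums in WT. Such values are counted above, and the 1 labelled as reversed was that of the mitochondrial sums in KO. DESeq2 called 1 transcript for genotype and 16 for code, none of them a synthetase, where limma called 0. Leaving out single genes was chosen after seeing the data: without Tars2 the log2 ratio of the mitochondrial sums was 3.06 for KO SC against WT SC and -2.11 for WT SC against WT TTC. With Aimp2 counted as mitochondrial, the ratio of KO SC to WT SC was 1.22 (0.789 to 1.91), in place of 2.28. With a pseudocount of 0.1 RPM the median log2 difference of the mitochondrial enzymes in that comparison was 2.99, in place of 1.49. The causes of these shifts were not tested, beyond leaving out the reads of single genes. Mitochondrial enzymes had at most 12 reads in a library, so ratios there have wide intervals, and start-site reads alone do not separate mRNA level from initiation.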

Other observations

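The pattern of Tars2, reads in a single library, was also seen outside the synthetases. Of 6352 transcripts, 736 (11.6%) had reads in 1 library only, and 161 had at least 8 reads in 1 library and none in the 3 others. Pstk, the kinase of selenocysteine tRNA, had no read in KO SC, WT SC or KO TTC and 14 in WT TTC. Mthfd2, a mitochondrial folate enzyme, had no read in KO SC, KO TTC or WT TTC and 8 in WT SC, as Tars2 had. Among the elongation factors, Eef1a2, the form of mature neurons and muscle, had 38.5 RPM in KO SC, 37.2 in WT SC, 13.1 in KO TTC and 8.90 in WT TTC, while Eef1a1, the widely expressed form, had 12.7 RPM in KO SC, 21.5 in WT SC, 23.5 in KO TTC and 32.2 in WT TTC. Both genes were chosen after their values were seen.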
